A study of Mus musculus with 6 samples.

Results

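Open chromatin was compared between day 10 and day 3 of differentiation in ATDC5 cells, a mouse line of cartilage precursors, using 4 of the 6 libraries of the series. Day3 and Day10 each had 2 libraries, which the labels describe as independent biological replicates, and the libraries were chosen by the day named in their titles. The 2 Day0 libraries were used only to describe the regions found. All 4 compared libraries carry the label of differentiation: cells were spotted as dense droplets and cultured with ascorbate-2-phosphate and beta-glycerophosphate added. ATDC5 is a single line in culture, so the replicates do not stand for separate animals. The measurement was ATAC-seq: the Tn5 transposase cuts DNA that nucleosomes leave free and tags the ends with adapters, and the data are 1 list of peaks per library.

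Cartilage forms when mesenchymal precursors condense, take on the chondrocyte fate under the transcription factor Sox9 and its partners Sox5 and Sox6, and lay down a matrix of type II collagen and aggrecan. Chondrocytes later enlarge, make type X collagen and mineralize their matrix, a step that involves Runx2 and Mef2c. Open regions mark promoters, which are mostly shared by cell types, and enhancers, which differ more between them and often lie in groups around genes of cell identity. Regions are given here by position in build GRCm39, counted from 1. They were not assigned to genes, so the chondrocyte, osteoblast and fibroblast markers were not set against the label, and no DNA sequence is shown, because the gene and promoter tables at hand belong to GRCm38.p6.

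The lists held 177751 and 177111 peaks at Day3 and 381376 and 390100 at Day10. Depth, estimated as the background behind the authors' fold divided by the smallest listed width, was 1.75 times the Day3 mean in both Day10 libraries. The backgrounds were 0.799 and 0.798 at Day3, against 1.08 and 1.15 at Day10. The smallest widths were 87 and 88 bases at Day3, against 68 and 72 at Day10, so the estimate rests on both. Peak names in both Day3 lists contain the word lysis and those in both Day10 lists contain S2, so the day cannot be told apart from any handling these words stand for. Equal numbers of peaks were therefore compared: the 50000 strongest of each library by the authors' fold over background. A peak's pileup below is the number of extended reads over its summit, recovered from that fold. The peak at rank 50000 had a pileup of 25 and 26 at Day3, against 36 and 37 at Day10, and the peak at rank 100000 had 11 and 12, and 20 and 21. Equal ranks thus stand for different pileups on the days, and a pileup is read within its own library.

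The strongest open regions differed more between the days than between replicates. Among the 50000 strongest peaks, the Jaccard index, which is the share of covered bases that 2 libraries have in common, was 0.821 within Day3 and 0.817 within Day10. Across days it lay between 0.515 and 0.520 in the 4 pairs. At no number of peaks tried between 1000 and 150000 did a pair across days reach a pair of the same day. Among the 1000 strongest peaks the index was 0.555 within Day3, 0.462 within Day10 and at most 0.320 across days. Of the 3 ways to pair the libraries, that by day gave the greatest mean index, for a one-sided exact permutation p of 0.333, the smallest that 4 libraries allow.

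**Figure D1:**
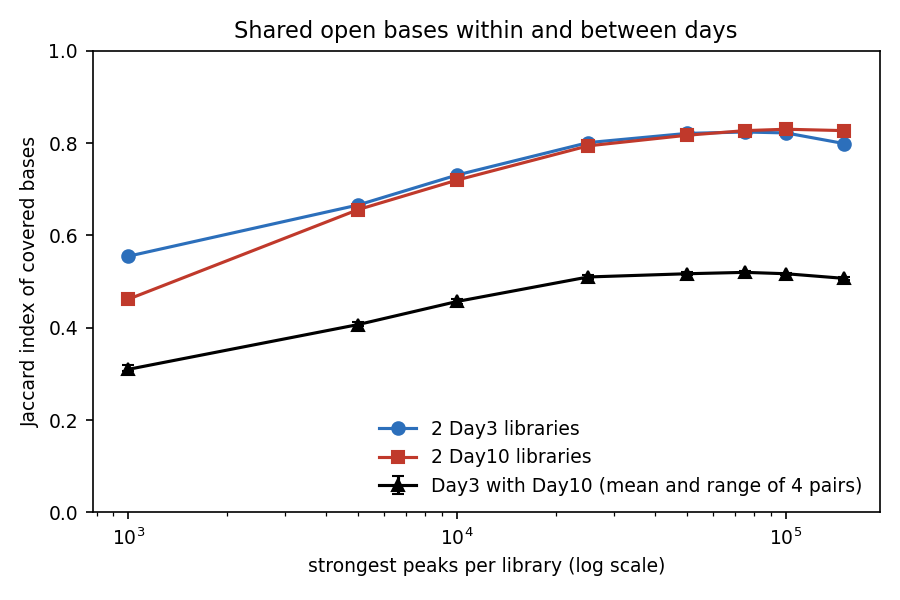
Jaccard index of covered bases (vertical axis, no unit) against the number of strongest peaks per library (log axis), for the 2 Day3 libraries, the 2 Day10 libraries and the 4 pairs across days (mean, bars from lowest to highest). The curves within a day end at 0.799 and 0.827 for 150000 peaks, and the curve across days stays at or below a mean of 0.520.

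In counts of regions the turnover was as follows. The 50000 strongest intervals of the 4 libraries merged into 66820 regions. A library was said to hold a region when one of its 50000 strongest peaks overlapped it by at least 1 base. Weaker listed peaks did not count here. Day3 replicate 1 held 48684 of them, and Day3 replicate 2 shared 94.2% of those, while the Day10 libraries shared 70.1% and 70.2%. Day10 replicate 1 held 48340, of which Day10 replicate 2 shared 93.6% and the Day3 libraries 70.6% and 70.5%. About 7 regions in 10 of a library were thus held among the 50000 strongest peaks on the other day.

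Gained regions were defined as those within the 50000 strongest peaks in both Day10 libraries and outside the 100000 strongest in both Day3 libraries. They numbered 6033, which is 9.03% of the 66820 regions. Lost regions, by the mirrored rule, numbered 2495, or 3.73%. Kept regions, within the 50000 strongest of all 4 libraries, numbered 32120, or 48.1%. Gained regions outnumbered lost ones 2.42 times. Another 7083 regions were strong in both Day10 libraries and between the limits, or split between replicates, at Day3. The reverse was seen for 11232 regions, and 7857 were strong in both libraries of neither day.

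The excess of gained over lost regions depended on what was asked of the weak day. Without the gap between rank 50000 and rank 100000 the counts were 11848 gained and 11188 lost, a ratio of 1.06, which is near balance by construction. When a region had to lack any listed peak on the weak day, 3371 were gained and 110 lost, but the Day10 lists are the longer ones. With all lists cut to 176710 peaks, a setting chosen after the lengths were seen, 3380 were gained and 590 lost, a ratio of 5.73. With the authors' -log10 q in place of equal numbers the ratio was 9.28. Depth moves with the day, and its part in the excess was not tested. With 2 libraries against 2, no two-sided exact permutation test can go below 0.333, so no p is given for these counts.

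In bases, the 50000 strongest peaks shared 32.7 megabases between both Day3 libraries and 37.1 megabases between both Day10 libraries, with 23.9 megabases common to all 4. Bases open in both Day10 libraries and outside the 100000 strongest peaks of Day3 came to 8.33 megabases. The mirrored set covered 3.22 megabases. This measure does not depend on how intervals are merged, but it does depend on peak width. The 50000 strongest peaks covered 36.5 and 36.1 megabases in the Day3 libraries, against 40.4 and 42 in the Day10 libraries. Bases at the edges of regions open on both days are counted too, so these megabases are not those of gained and lost regions alone.

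Changes were concentrated among weaker peaks, which the rule itself favours. A very strong region must fall a long way to count as lost, and one near rank 50000 need fall less. Of the 667 regions whose poorer Day10 rank was 1000 or better, 1 was gained. Among the 9348 between ranks 10000 and 20000 the share was 6.57%, and among the 8946 between 40000 and 50000 it was 25.2%. Losses were rarer among strong peaks. By poorer Day3 rank, 0 of the 738 regions up to rank 1000 and 0 of the 3436 up to 5000 were lost, and 1 of the 4611 between 5000 and 10000. The share lost was 0.568% between 10000 and 20000 and 15.8% between 40000 and 50000.

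**Figure D2:**
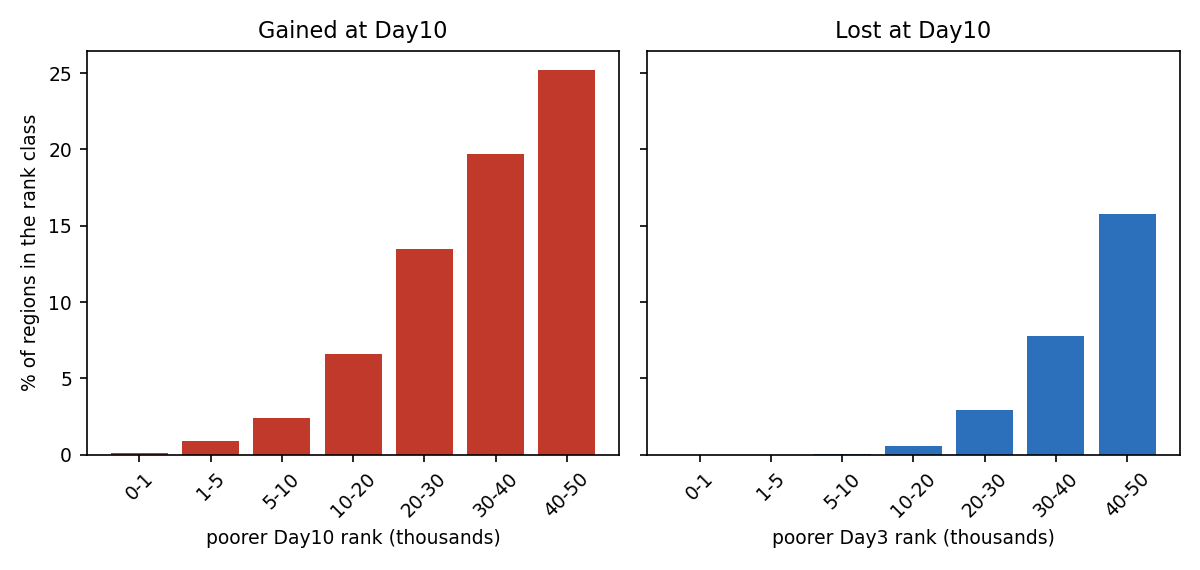
Percentage of regions gained (left) or lost (right) at Day10 among all regions of a rank class, where the class is set by the poorer of the 2 ranks on the strong day. Bars rise from 0.15% to 25.2% for gained regions and from 0 to 15.8% for lost ones.

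The strongest gained region lay at chr5:150174314-150176106. It ranked 588 and 946 at Day10, with pileups of 92 and 95, and 138000 and 111644 at Day3, with pileups of 8 and 10. It was not listed at Day0. A region at chr5:150260876-150261783, in the same stretch, was also among the 10 strongest gains, at ranks 2734 and 2638 at Day10, while at Day3 it was listed in replicate 1 alone, at rank 111120. Chromosome 14 likewise gave a pair. The region at chr14:25206815-25208506 ranked 1241 and 1030 at Day10, against 105737 and 116220 at Day3. The region at chr14:25866486-25867972 ranked 1700 and 1216 at Day10 and was listed in no Day3 or Day0 library.

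Chromosome 17, where 9.84% of regions were gained against 9.03% of all regions, held 2 more of the 10. The region at chr17:48135483-48136558 ranked 443 and 1247 at Day10, against 117192 and 107564 at Day3. The region at chr17:31999835-32002277 ranked 1271 and 861, against 117075 and 148204. Both went from pileups of 8 to 11 at Day3 to pileups of 89 to 96 at Day10. The others lay at chr5:124590043-124592408, chr15:80873281-80874824, chr19:28822422-28823414 and chr8:70814057-70816535. The one on chromosome 19 was the exception at Day0, where it was listed at ranks 133641 and 122662. The 9 other regions were absent from both Day0 lists. Of the 10, 9 had a weak listed peak in a Day3 library. Only 1 of the 10 was still called with no listed peak allowed, with lists of equal length, by q, or with 75000 peaks and an outer limit of 150000.

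Among gained regions with no listed peak in either Day3 library, the region on chromosome 14 just described came first. Next were 2 on chromosome 11, at chr11:113111966-113113015 and at chr11:113783214-113784679. The first of these ranked 1034 and 2756 at Day10, with pileups of 90 and 88. The second ranked 3242 and 1646, with pileups of 82 and 92. A region at chr5:118449765-118451156 ranked 2393 and 3680, and one at chr16:44799595-44800588 ranked 3707 and 3523. The 5 regions were absent from the Day0 lists too. They went from no listed peak in 4 libraries to ranks of 1034 to 3707 at Day10.

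The strongest lost region lay at chr19:41924127-41924859. It ranked 4958 and 6890 at Day3, with pileups of 75 and 71, and 122123 and 101225 at Day10, with pileups of 17 and 21. A region at chr2:32575801-32576260 ranked 10107 and 9953 at Day3, against 163416 and 126315 at Day10. A region at chr15:37607738-37608170 ranked 10495 and 10949, then 128694 and 131996. Lost regions were weaker on their strong day than gained ones: the tenth gained region had a poorer rank of 2734, the tenth lost region one of 14940.

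Chromosome 15 carried 3 of the 10 strongest losses, and 129 of all 2495 lost regions. The share of its regions that were lost was 4.48%, against 3.73% of all regions. Besides the one above, the region at chr15:27418545-27419259 ranked 12257 and 12702 at Day3, against 174226 and 140980 at Day10, and the region at chr15:8883711-8884256 ranked 13561 and 13333, then 107978 and 100403. On chromosome 7, the region at chr7:100489014-100489997 went from ranks 12026 and 10740 to 125661 and 137432. Of the other 4, 3 lay at chr17:35104331-35105115, chr12:84325610-84326302 and chr4:31768175-31769062, at ranks of 10546 to 14940 on Day3. Pileups in the 10 lost regions were 56 to 75 at Day3 and 12 to 21 at Day10, so reads remained at each of them. The 10 were strong at Day0 as well, at ranks between 2606 and 19099. The last, at chr4:4219674-4220114, was the only one of the 10 with poorer ranks at Day0, 19099 and 16494, than at Day3, 14464 and 12973. Of these 10 lost regions, 1 was called with 75000 peaks, and 0 by q, with no listed peak allowed or with lists of equal length.

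**Figure D3:**
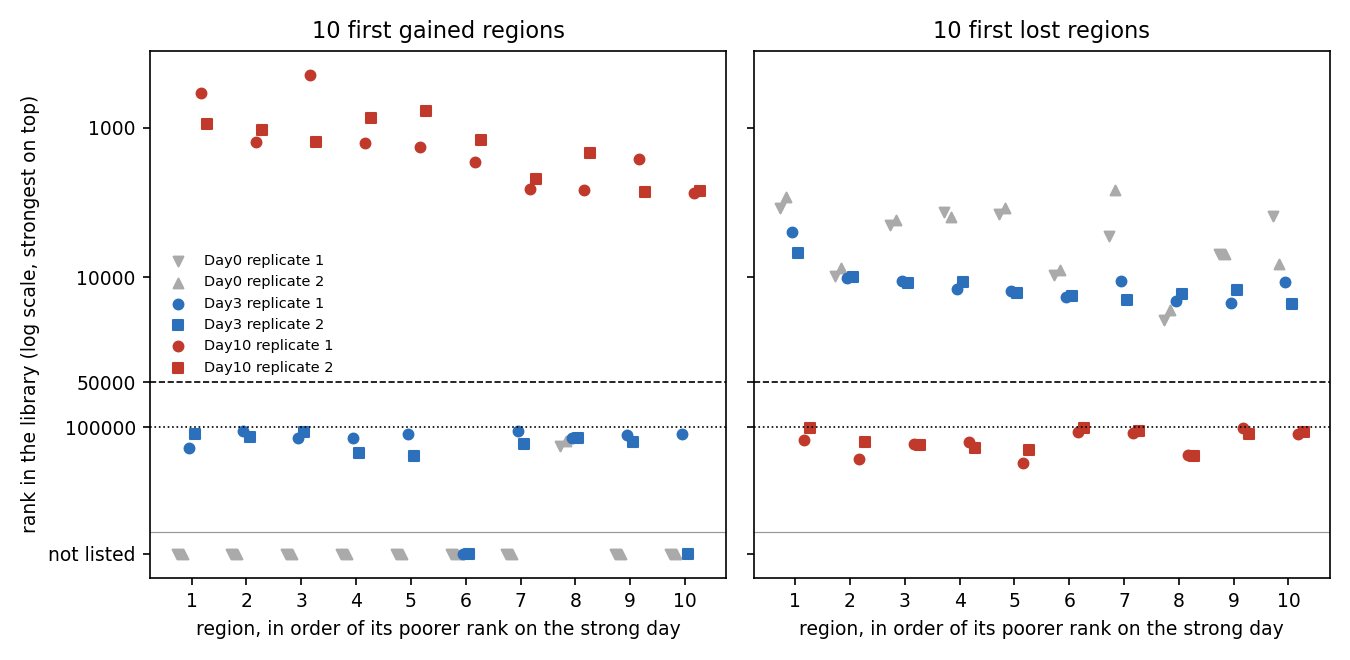
Rank of the 10 strongest gained (left) and 10 strongest lost (right) regions in each of the 6 libraries, on a log axis with the strongest rank on top; dashed and dotted lines mark ranks 50000 and 100000, and points under the grey line are not listed. Gained regions rank 443 to 2734 at Day10, and 9 of the 10 are not listed at Day0, whereas the lost regions rank 2606 to 19099 at Day0.

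Few lost regions vanished from the lists. The best placed of the 110 with no listed peak at Day10 lay at chr9:28970977-28971797, at ranks 18408 and 20412 at Day3 with pileups of 51 and 49. A second at chr9:23884304-23884775 ranked 19217 and 24926. The next lay at chr6:5444454-5444982, chr11:60747212-60747781 and chr9:110509837-110510261. Thus 3 of these 5 were on chromosome 9, where 3.61% of regions were lost, against 3.73% of all regions.

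Over whole classes the same contrast held. Of the 6033 gained regions, 55.9% had no listed peak in either Day3 library, 11.4% had one in a single library and 32.7% in both. Of the 2495 lost regions, 4.41% had no listed peak in either Day10 library and 93.1% had one in both. Part of this contrast goes with list length: with all lists at 176710 peaks, 23.6% of lost regions had no peak at Day10 and 56.0% of gained regions had none at Day3. Where a gained region was listed at Day3, its median pileup was 9 in both libraries, against 45 and 48 at Day10. Lost regions had a median pileup of 32 in both Day3 libraries and of 15 in both Day10 libraries where listed. The rank limits of the rule set these medians apart, and equal ranks stand for different pileups on the days.

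At the limits of the rule the values lay close together. The last gained region inside rank 50000, at chr6:8638656-8639336, ranked 48953 and 49992 at Day10. The first outside, at chr6:34519817-34520206, ranked 48965 and 50009 with the same pileups of 36 and 37. At the outer limit, a region at chr1:183839006-183839388 counted as gained with a Day3 rank of 100014, and one at chrX:157993850-157994239 did not, at 100000. For losses, the region at chr17:9715305-9715576 was the last inside, at Day3 ranks 49537 and 49997, and that at chr2:156621061-156621276 the first outside, at 50016 and 43254. At Day10, ranks of 100003 at chr6:55335749-55335997 and of 99962 at chr12:103929073-103929648 stood on either side of the outer limit.

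The Day0 libraries, which the rule does not use, were then read at the same regions. Of the gained regions, 92.0% were outside the 100000 strongest peaks of both Day0 libraries, and 76.7% had no listed peak in either. Of the lost regions, 80.9% were within the 50000 strongest of both. Kept regions, which are strong at Day3 by rule as lost ones are, were within in 88.5% of cases, a higher share than that of lost regions. Over all 66820 regions the shares were 16.5% outside and 60.1% within. Gained regions are weak at Day3 by rule, and no other class weak at Day3 was set beside them. They make up 5553 of the 11040 regions outside at Day0. Most gains at Day10 were thus weak or unlisted on both earlier days, and most losses were strong on both.

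**Figure D4:**
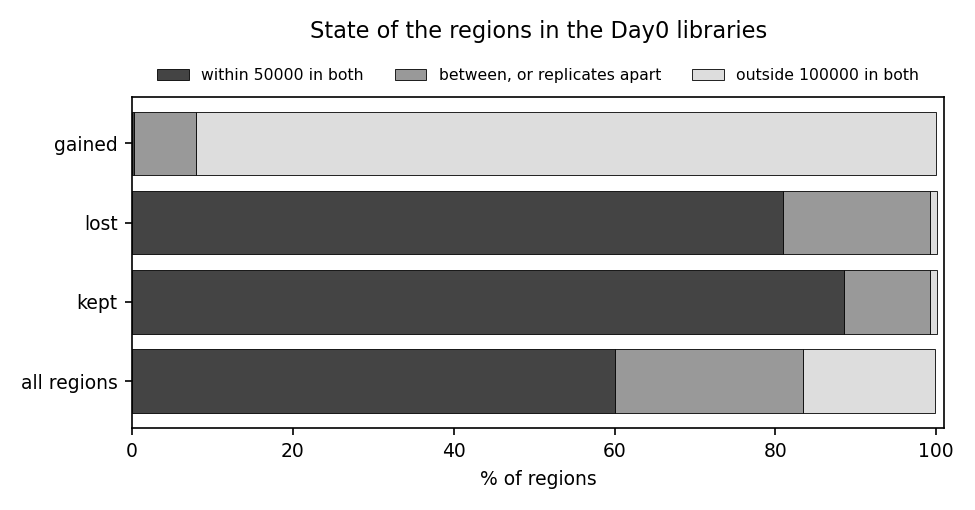
State at Day0 of gained, lost, kept and all regions, as a percentage of the regions of each class. Gained regions are 92.0% outside the 100000 strongest in both Day0 libraries, and lost regions 80.9% within the 50000 strongest.

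Full exceptions were few. Only 13 gained regions, 0.215%, had been strong in both Day0 libraries, so that they were weak at Day3 alone. Of the lost regions, 21, or 0.842%, were outside the 100000 strongest peaks of both Day0 libraries. Another 456 lost regions, 18.3%, and 467 gained ones, 7.74%, lay between the limits at Day0 or were split between replicates. The examples here were chosen after their values were seen. At chr17:15035643-15036741 the ranks were 38343 and 28220 at Day0, 116926 and 117400 at Day3, then 29223 and 26214 at Day10. Pileups there were 36 and 46, 10 in each Day3 library, then 49 and 54. At chr5:74636476-74637004 the ranks were 37519 and 39778, then 121895 and 102252, then 10765 and 12661. Pileups there were 36 and 35, then 9 and 11, then 68 and 69. Estimated depth was 0.892 and 0.89 times the Day3 mean at Day0, against 1.75 at Day10, so these pileups are not compared across days. In the other direction, a region at chr5:121045360-121045816 was not listed at Day0, ranked 25334 and 25692 at Day3 and fell to 124752 and 157145 at Day10.

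The neighbours of gained and of lost regions were read next. The nearest region to a gained region was itself gained in 19.6% of cases, where 9.03% of all regions were gained, and lost in 1.86%. The nearest region to a lost one was lost in 9.50% of cases, against 3.73% of all regions, and gained in 5.13%. Gained regions also stood closer to their neighbours: the median gap to the nearest region of any class was 3644 bases for gained, 4072 for kept and 9509 for lost regions. A kept region lay within 20000 bases of 67.5% of gained and 46.1% of lost regions. These shares describe the regions, move with the size of each class and carry no test. Intervals that share no base stay separate, so parts of 1 wide open stretch can count as neighbours. For example, chr4:63117594-63118058 and chr4:63118127-63118559 are 2 gained regions. Without a gap between ranks, where the classes are of similar size, the nearest region was of the same class for 28.6% of gained and 23.5% of lost regions. Both classes were larger in that setting than in the main one, at 11848 and 11188 regions. For lost regions the share was 6.37% with 25000 peaks, 3.64% with no listed peak allowed and 3.39% with lists of equal length. Those 3 settings called 1194, 110 and 590 lost regions, in that order, against 2495 in the main setting. For gained regions the share was 34.3% by q, which called 39786 of them, against 6033. No share over all regions is given for these settings. Whether same-class neighbours became more or less common than class size implies was not tested.

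Chains were formed of regions of 1 class with gaps of up to 20000 bases. Parts of 1 wide open stretch can be separate members of a chain. Among gained regions, 260 chains had 3 or more members and held 16.0% of all gained regions. Lost regions formed 8 such chains with 1.12% of all lost regions. There are fewer lost regions, and among the 2495 strongest gained regions, a count matched after the values were seen, 53 chains had 3 or more members and held 7.33%.

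The longest chain of gains lay at chr7:78618371-78707294, with 11 gained regions over 88.9 kilobases. Of the 22 regions inside, 11 were gained, 2 kept and 0 lost, and the rest were in no such class. The whole stretch held 21 and 19 of the 50000 strongest peaks in the Day10 libraries, 4 and 3 at Day3, and 4 and 5 at Day0. Its strongest member, at chr7:78671052-78671689, ranked 5901 and 7631 at Day10, and at Day3 was listed in replicate 1 alone, at rank 171029 with a pileup of 6. The member at chr7:78692522-78694232 ranked 8216 and 6050 and was listed in no Day3 or Day0 library. Pileups of the 11 members ranged from 37 to 76 and from 40 to 80 in the Day10 libraries, and at Day3, where 5 and 4 of them were listed, from 6 to 9 and from 6 to 10. Day10 and Day3 values did not overlap in any member, as the rule requires.

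The next chains were shorter. At chr8:106976158-107048794, 9 gained regions lay beside 5 kept ones, and the stretch held 16 strong peaks in each Day10 library against 5 in each Day3 library. That stretch had 15 regions. At chr4:130629996-130671891, 8 of 12 regions over 41.9 kilobases were gained. These 8 had no listed peak at Day0, and 1 was listed in each Day3 library. At chr1:75044917-75069768, 7 of 11 regions within 24.9 kilobases were gained. Strong peaks there numbered 11 in each Day10 library, 2 in each Day3 library and 1 in each Day0 library. A further 7 gained regions, of 11 regions, lay at chr4:63117594-63147816. No lost region lay inside any of these 5 chains.

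Losses gave 1 chain of 5, at chr6:89840756-89867510, where 6 regions lay in all. The stretch held 6 strong peaks in each Day3 library, 5 in each Day0 library and 0 in each Day10 library. Its strongest member, at chr6:89857672-89858433, had pileups of 78 and 66 at Day0, 53 and 54 at Day3, and 20 in both Day10 libraries. The member at chr6:89853697-89854435 had 67 and 72, then 35 and 38, then 16 and 19. By rank, these 2 members stood at 5485 and 12631, and at 11092 and 9248, at Day0. Their Day3 ranks were poorer, at 16726 and 16420, and at 34320 and 31217, and all their Day10 ranks were beyond 100000. The member at chr6:89844992-89845266 ranked better at Day3, at 39956 and 40384, than at Day0, at 65127 and 74870, with pileups of 21 and 18 at Day0, 31 in each Day3 library and 10 in each Day10 library. A second chain of 4 lost regions lay at chr6:36795908-36828114, with 5 strong peaks in each Day3 library and 0 in each Day10 library. Another, at chr7:83960070-83987434, held 4 lost regions and 1 gained one among 7 regions.

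On the scale of megabases, the number of gained regions varied between bins, and so did the number of regions of any class. Of 2264 bins of 1 megabase that held a region, 1485 had a gained region, 110 had 10 or more and 5 had 20 or more. Losses reached 5 or more in 42 bins and 10 in none. Both kinds occurred together in 1012 bins. Bins with more changes also held more regions: the median number of regions was 6 in bins with 0 gained, 18 with 1, 44 with 5 and 67 with 10. For losses it was 13 in bins with 0 lost and 45 with 5. These counts of bins thus move with the number of regions and with the size of each class.

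The densest bin for gains was megabase 113 to 114 of chromosome 11, where 38 of 102 regions were gained, 1 was lost and 29 were kept. Strong peaks numbered 100 and 94 in the Day10 libraries, 37 and 38 at Day3, and 39 and 40 at Day0. Of the 38 gained regions, 16 and 15 were listed in the Day3 libraries, with pileups up to 11, and 6 in each Day0 library. Their median pileup at Day10 was 48.5 and 51. Beside the 2 regions named above, the one at chr11:113185042-113186271 ranked 2524 and 3843 at Day10 and the one at chr11:113681984-113683263 ranked 5019 and 3099. The share gained here was 37.3%, against 9.03% of all regions.

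Other dense bins followed at some distance. Megabase 25 to 26 of chromosome 14 had 23 gained regions of 131, among them 2 of the 10 strongest gains. Megabase 28 to 29 of chromosome 17 had 22 of 107, and megabases 134 to 135 of chromosome 5 and 145 to 146 of chromosome 6 had 20 each, of 89 and 71 regions. For losses, megabase 38 to 39 of chromosome 5 led with 8 of 52 regions, and strong peaks fell there from 47 and 45 at Day3 to 30 in each Day10 library. Megabase 36 to 37 of chromosome 6 had 7 lost of 19 regions and no gained one, with 16 and 15 strong peaks at Day3 and 4 in each Day10 library. Of the 5 bins tied at 7 lost regions, the others named were megabases 14 to 15 of chromosome 1, 89 to 90 of chromosome 6 and 83 to 84 of chromosome 7. In the last of these, strong peaks numbered 58 and 57 at Day3, against 56 and 59 at Day10, so losses there stood beside gains.

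Every chromosome compared had more gained than lost regions, with ratios from 1.47 on chromosome 3 to 3.32 on chromosome 11. The share of a chromosome's regions that were gained ran from 5.64% on chromosome X to 10.4% on chromosome 5, with a median of 9.01%. Chromosome 3, at 7.16%, and chromosome 12, at 7.66%, were next above X. Lost shares ran from 2.82% on chromosome 11 to 4.86% on chromosome 3. Chromosome X had the largest kept share, 52.0%. Its part of the 50000 strongest peaks was 2.09% and 2.03% at Day3 and 1.92% and 1.94% at Day10, and that of chromosome 3 was 4.24% and 4.25%, then 3.85% and 3.90%. On chromosome 11 it was 7.64% and 7.73%, then 8.04% and 7.88%. These 3 chromosomes were chosen for their shares of gained, lost or kept regions, which rest on the same ranks, so these values describe them and add no support. The number of copies of each chromosome in the line was not measured.

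**Figure D5:**
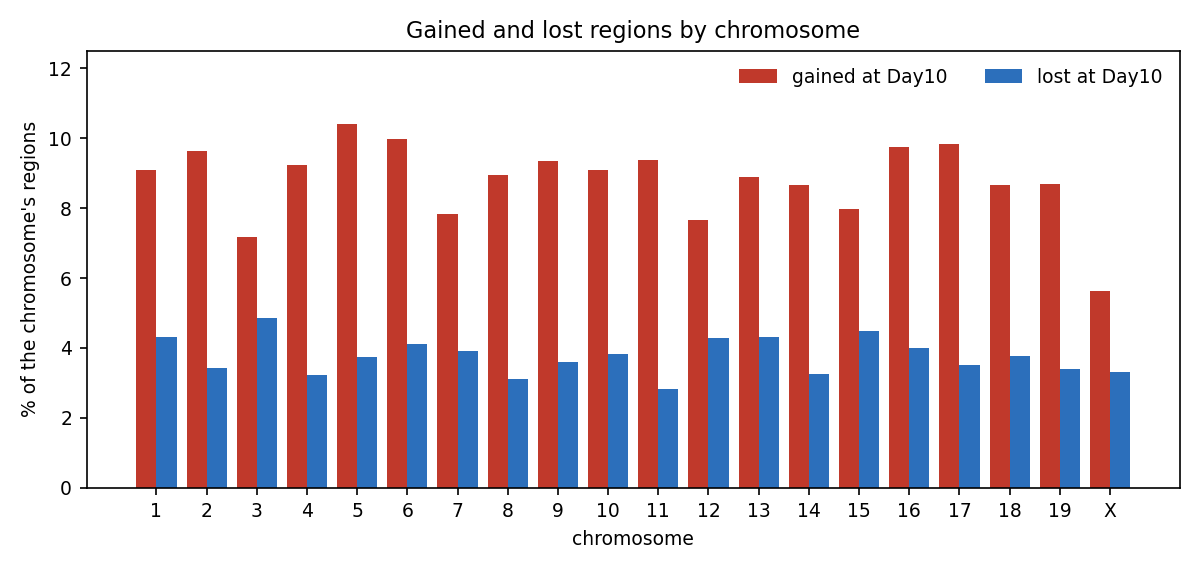
Percentage of the regions of each chromosome that were gained (red) or lost (blue) at Day10. Gained shares run from 5.64% on X to 10.4% on chromosome 5, and in each of the 20 chromosomes the gained bar is the taller.

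Width follows strength in these lists, so peaks were compared within a library and within classes of 10000 ranks. Between ranks 40000 and 50000, peaks in gained regions had a median width of 460 and 475 bases in the Day10 libraries, and peaks in kept regions 419 and 436. Among the 10000 strongest the order was reversed, with 932 and 971 bases in gained regions and 1180 and 1227 in kept ones. Ranks are not equal inside a class. By poorer Day10 rank, 0.15% of regions up to rank 1000 were gained, against 2.42% between 5000 and 10000. Gained and lost regions can thus have poorer ranks than kept ones of the same class. How far this sets the widths apart was not tested. Peaks in lost regions were narrower than kept ones in each of the 5 rank classes of both Day3 libraries (the strongest class holds only 2 and 4 lost regions), for example 357 and 362 against 452 and 449 bases between ranks 40000 and 50000. As merged regions, gained ones had a median width of 592 bases, lost ones of 434 and kept ones of 942.

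The widest gained region lay at chr8:106976158-106983198, 7041 bases long, and began the chain on that chromosome described above. It ranked 22048 and 19038 at Day10, against 112809 and 141101 at Day3. The second widest, 4372 bases at chr8:106985373-106989744, followed in the same chain. The third lay at chr19:56209164-56212809 and was listed at Day10 alone, at ranks 19567 and 15429. Among losses the widest covered 3378 bases at chr11:5821014-5824391, at ranks 40354 and 42354 at Day3, against 171352 and 175539 at Day10. The next, at chr5:57874132-57875999 and on chromosome 18, were each 1868 bases long. These 3 lost regions were less strong at Day0, at ranks between 50537 and 79231, than at Day3.

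Kept regions were similar in extent on the days, with a median of 755 and 747 covered bases at Day3 and 768 and 796 at Day10. The covered bases were at least 2 times larger in both Day10 libraries in 741 kept regions, or 2.31%, and at least 2 times larger in both Day3 libraries in 363, or 1.13%. Summits, which the rule ignores, moved little. The summits of the strongest peak in a kept region lay a median of 9 bases apart between replicates of either day and 16 to 18 bases apart between days. They were over 200 bases apart in 2.52% and 3.24% of kept regions within a day and in 6.91% to 7.20% between days. In gained regions the Day10 replicates placed the summit a median of 10 bases apart.

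The kept regions with the best ranks were near the top of every list. A region at chr1:24650561-24655320 ranked 1 in each Day3 library, against 2 and 1 at Day10. One at chr2:98496529-98497731 ranked 3 in all 4 libraries. The others lay at chr2:22477249-22480601 and at chr12:97028140-97028619 and at chr12:3159816-3160199. The 5 ranked between 1 and 7 in all 6 libraries. No repeat filter was applied, and what these 5 regions contain was not examined.

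Rank shifts within kept regions went both ways. In 9941 of the 32120, or 30.9%, both Day10 ranks were better than both Day3 ranks, and in 13622, or 42.4%, both were poorer. A shift of at least 4 times in rank was seen toward Day10 in 522 regions and toward Day3 in 429. Examples with the largest shifts were taken after the values were seen. At chr17:13064702-13066134 the ranks were 36359 and 30677 at Day3, against 86 and 102 at Day10, with pileups of 34 and 39, then 100 and 105. At chr5:144254174-144256513 they were 16705 and 20270, then 54 and 68. The former was thus among the weaker kept regions at Day3 and near the top at Day10, without being counted as gained.

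Shifts toward Day3 were read in the same way. At chr1:72293320-72295491 the ranks went from 30 and 56 at Day3 to 6794 and 6343 at Day10, with pileups of 115 and 111, then 74 and 79. At chr15:8835423-8836671 they went from 331 and 301 to 16775 and 16038. That region lies on the same chromosome as the lost region starting at 8883711. At chr5:38701030-38703226, in the bin with the most losses, the ranks were 128 and 206 at Day3, against 9413 and 10658 at Day10, after 124 and 138 at Day0.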

How the data were processed

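Each library has 1 deposited narrowPeak list of its own, without a header. Per the submitters' processing notes, Trim Galore was used and the build was mm10. The lists hold scaffold names of GRCm39, and the rule for this comparison reads them as GRCm39. Of 21627 protein-coding genes in GRCm38.p6, 7.75% to 7.85% had a strong summit within 500 bases of a gene end, against 5.43% to 5.62% once summits were shifted by 1000000 bases, so that build was not used for positions. For the aligner, the peak caller and any shift for the Tn5 cut, nothing is given in the sources used here. The deposited values, all the authors' own, are an integer score, a summit, -log10 values of p and q, and the ratio (fold) of pileup to background. Score and p were not used; the deposited -log10 q ordered ties of the ratio. Fold was found to be (pileup + 1) / (background + 1), with whole pileups within 0.001 in 100% of peaks. Depth was estimated as that background divided by the smallest listed width, and read totals were not used.

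Chromosomes 1 to 19 and X were used. Peaks were ranked by fold, then -log10 q, then position, and 1928 to 2060 peaks per compared library tie at rank 50000. Regions are merged intervals of the 50000 strongest peaks. Regions named are the 10 strongest gained and lost, the 5 strongest unlisted on the other day, the 3 widest, the 5 strongest kept, the 5 densest bins, the longest chains and those at the limits. The list, the rules and the alternatives were chosen with earlier results of these data known. Planned gene lists, named genes, motifs and distances to genes were not run, for lack of an annotation or genome of the build. Code was tested on simulated lists. Python 3.11.15, NumPy 2.4.6, pandas 2.3.3, SciPy 1.17.1 and matplotlib 3.10.9 were used.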

Additional observations from a re-analysis of the deposited data

Results flagged for a closer look

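Peaks outside the chromosomes compared were listed in each library. Chromosome Y had 91 and 89 peaks at Day3, against 109 and 106 at Day10. Unplaced scaffolds had 325 and 311 at Day3, against 453 and 422 at Day10. These counts are above a floor of 3 counts, which is no test of them, and the Day10 lists are the longer ones.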

How the results depend on the processing

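No paired analysis was possible because the counts come from a rule over both replicates and from no test, and the labels do not say that a replicate number links libraries of different days. More regions were gained than lost in each of the 14 settings tried, with ratios from 1.06 to 30.6. Keeping each deposited row could only repeat the main counts, and the setting without a gap is near balance by construction. With 25000 peaks per library there were 2787 gained, 1194 lost and 16268 kept regions; with 75000 there were 9428 gained and 4162 lost. Without a gap between ranks there were 11848 and 11188 (ratio 1.06), with no listed peak allowed 3371 and 110 (30.6), and with lists of equal length 3380 and 590 (5.73). With a -log10 q of 10 and 5 in place of ranks there were 39786 gained, 4289 lost and 71278 kept regions (9.28). Numbers of peaks set these counts by construction; for the q setting the cause was not tested. An overlap of 50% of the shorter interval, fixed windows around summits and keeping tied peaks left each count within 1.5 times, and no interval was repeated in a list. Leaving out 1 library removes a condition and gave 6416 to 7140 gained, 2913 to 3175 lost and 32871 to 33537 kept regions, with ratios of 2.02 to 2.45.

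The share of gained regions outside the outer limit at Day0 was 93.6% with 25000 peaks, 90.2% with 75000, 91.1% with no listed peak allowed and with lists of equal length, 87.8% by q, and 90.6% to 92.1% without 1 library. The share of lost regions within the inner limit at Day0 was 78.5% with 25000 peaks, 78.0% with 75000, 65.4% without a gap, 93.6% with no listed peak allowed, 89.3% with lists of equal length, and 74.9% to 79.4% without 1 library. The mean Jaccard index within days exceeded that between days by 0.302, by 0.287 with 25000 peaks and by 0.306 with 75000. Total reads are unknown, so no depth limit is given for a region that is not listed.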
